A study of Mus musculus with 16 samples.

Results

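The genes described here are 44 mouse genes whose products are secreted by hepatocytes and make up most of the protein of blood plasma, among them albumin, the apolipoproteins, fibrinogen, complement and the plasma protease inhibitors. The rule lists them by name and holds no measured value, but the genes were chosen with earlier results of these data known. A cluster, which is a stretch of genome where sequenced fragments pile up, was given to a gene when its midpoint lay inside the gene on the same strand of GENCODE M21 on the mm10 build. All 44 genes held at least 1 cluster, and together they held 11492 of the 1331383 clusters in the 8 immunoprecipitated libraries.

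The study used seCLIP, in which ultraviolet light joins RNA to the proteins it touches, an antibody pulls down one protein, and the RNA that comes with it is sequenced. The protein was PGC-1α, a transcriptional coactivator that also has an RNA-binding region. All libraries came from primary hepatocytes of C57BL/6J mice irradiated at 254 nm and 400 mJ/cm2. The deposited lists compare each immunoprecipitated (IP) library with an input, and 8 input libraries were also deposited but not analysed here. There were 4 groups of 2 replicates: untreated control cells, and cells kept overnight in starvation medium and then stimulated with 200 nM glucagon during 3 h, each with a lower and an upper band cut from the gel. Whether the untreated cells also spent the night in that medium is not stated. The labels do not say whether replicates came from separate mice or cultures, so every p-value below measures only the spread between libraries, which may be technical. The bands are separate libraries of the same cells per the labels, yet the main tests treat the 8 IP libraries as independent. The lists held 132622 and 178308 clusters in control lower band replicates 1 and 2, 240002 and 260814 in control upper, 26279 and 188011 in glucagon lower, and 97629 and 207718 in glucagon upper. Glucagon lower band replicate 1 therefore stood apart as the smallest list. Markers of other liver cells were nearly absent as clusters: 1 of 7 Kupffer cell genes, 1 of 7 endothelial, 1 of 7 stellate and 2 of 5 cholangiocyte genes held any.

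Plasma proteins are made on the rough endoplasmic reticulum. Their mRNAs carry a signal peptide at the start of the coding region that leads the ribosome to the membrane, and the liver keeps these mRNAs at very high levels. PGC-1α is induced in liver by fasting and glucagon and is known for switching on the genes of gluconeogenesis. In CLIP, an abundant mRNA gives many fragments in the input as well as in the IP, so each cluster is judged by its fold over input.

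Sequences from a few of these mRNAs show what their lowest and highest coding stretches look like. They are written as the DNA letters of the GENCODE M21 transcript, 5′ to 3′, with the 30-base window that was measured in capitals and 10 bases on each side in lower case. Taking the lowest window of each gene, by its mean fold against the library centre over 8 libraries, the lowest 4 of 38 genes were Apob, C3, Fn1 and Hpx, and Alb is added because it is the main plasma protein.
Apob exon 28, chr12:8013934-8013983, plus strand: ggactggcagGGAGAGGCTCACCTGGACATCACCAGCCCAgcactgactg
C3 exon 29, chr17:57211572-57211621, minus strand: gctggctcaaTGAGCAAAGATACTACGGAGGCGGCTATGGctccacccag
Fn1 exon 41, chr1:71595746-71595795, minus strand: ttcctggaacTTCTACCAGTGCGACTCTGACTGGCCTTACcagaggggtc
Hpx exon 10, chr7:105591758-105591807, minus strand: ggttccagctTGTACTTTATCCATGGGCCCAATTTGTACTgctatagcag
Alb exon 13, chr5:90474650-90474699, plus strand: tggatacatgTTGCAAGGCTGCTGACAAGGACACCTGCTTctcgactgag
The highest 4 by the same measure, in Rbp4, Cp, Gc and C3, follow, again with Alb added.
Rbp4 exon 2, chr19:38124567-38124616, minus strand: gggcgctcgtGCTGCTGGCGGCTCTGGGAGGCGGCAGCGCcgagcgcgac
Cp exon 16, chr3:19987359-19987408, plus strand: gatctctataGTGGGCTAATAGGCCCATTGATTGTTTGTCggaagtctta
Gc exon 2, chr5:89446520-89446569, minus strand: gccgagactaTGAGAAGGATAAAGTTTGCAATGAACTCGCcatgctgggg
C3 exon 30, chr17:57210254-57210303, minus strand: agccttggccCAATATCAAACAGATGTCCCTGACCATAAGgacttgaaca
Alb exon 1, chr5:90460964-90461013, plus strand: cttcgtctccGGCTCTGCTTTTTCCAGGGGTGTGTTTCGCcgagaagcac

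The Alb exon 1 window covers the end of the signal peptide and the start of the propeptide, and the Rbp4 window covers the end of its signal peptide. The Rbp4 window lay between 0.22 and 1.32 log2 fold over input across the 8 libraries, above 0 in each. The Apob window lay between -2.24 and -1.13, below 0 in each. Both C3 windows sit in neighbouring exons, yet the exon 29 window ran from -2.34 to -0.70 and the exon 30 window from -0.31 to 1.96. Even so, of 17563 coding windows of 30 bases in 38 of the genes, 0 were above the median of all clusters of the library on average. That centre averaged 1.26 over the 8 libraries, while the library medians of coding clusters over all genes averaged 0.01. Windows of other genes were not measured, so this count does not set the plasma protein genes apart. Relative to the centre the 17563 windows ran from -3.00 to -0.43, with a median of -2.13. These windows were picked for their values and carry no test.

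In every library the median cluster of the plasma protein genes lay below input, while the median of all clusters, exonic and intronic together, lay above it. Among exonic clusters alone, the median over all genes ran from -0.16 to 0.66 log2 fold across libraries, so it was not above input in each. That of the plasma protein genes ran from -1.17 to -0.35. The fold is the authors' log2 ratio of IP to input for each cluster, and it is used here only to describe and rank clusters and to take differences inside a library. The median log2 fold of the plasma protein clusters was -0.68 and -0.91 in control lower band replicates 1 and 2, -1.11 and -1.12 in control upper, -0.34 and -0.97 in glucagon lower, and -0.53 and -0.95 in glucagon upper. Over all clusters the same medians were 1.40, 1.35, 0.91, 1.05, 1.62, 0.98, 1.44 and 1.31 in that order. The medians of plasma protein clusters were highest in the pair of libraries with the fewest clusters, whose part in that order was not tested. The difference inside a library was far steadier than either median, at -2.08 ± 0.13 (SD, n = 8) with a range of -2.26 to -1.95, and treatments and bands overlapped.

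Gene by gene, the direction was shared. For each gene, the median fold of its clusters in a library minus the median of all clusters of that library was tested across the 8 libraries with limma and Benjamini-Hochberg adjustment, for genes with at least 3 clusters in every library. All 42 plasma protein genes that could be tested were lower than the library centre, beside 51.6% of the 2137 genes tested being lower and 23.8% higher. Their median was -2.02, with a range of -2.47 to -1.34, beside -0.36 over all genes tested. The library centre takes exonic and intronic clusters together, while the clusters of these genes were mostly exonic. Against exonic clusters alone their median was -0.97, as described below. F5 and Itih1 had fewer than 3 clusters in glucagon lower band replicate 1 and were not tested. Counting each gene in each library with at least 3 clusters, 349 of 350 values lay below the centre, the exception being Plg in that same library, with 5 clusters.

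**Figure D1:**
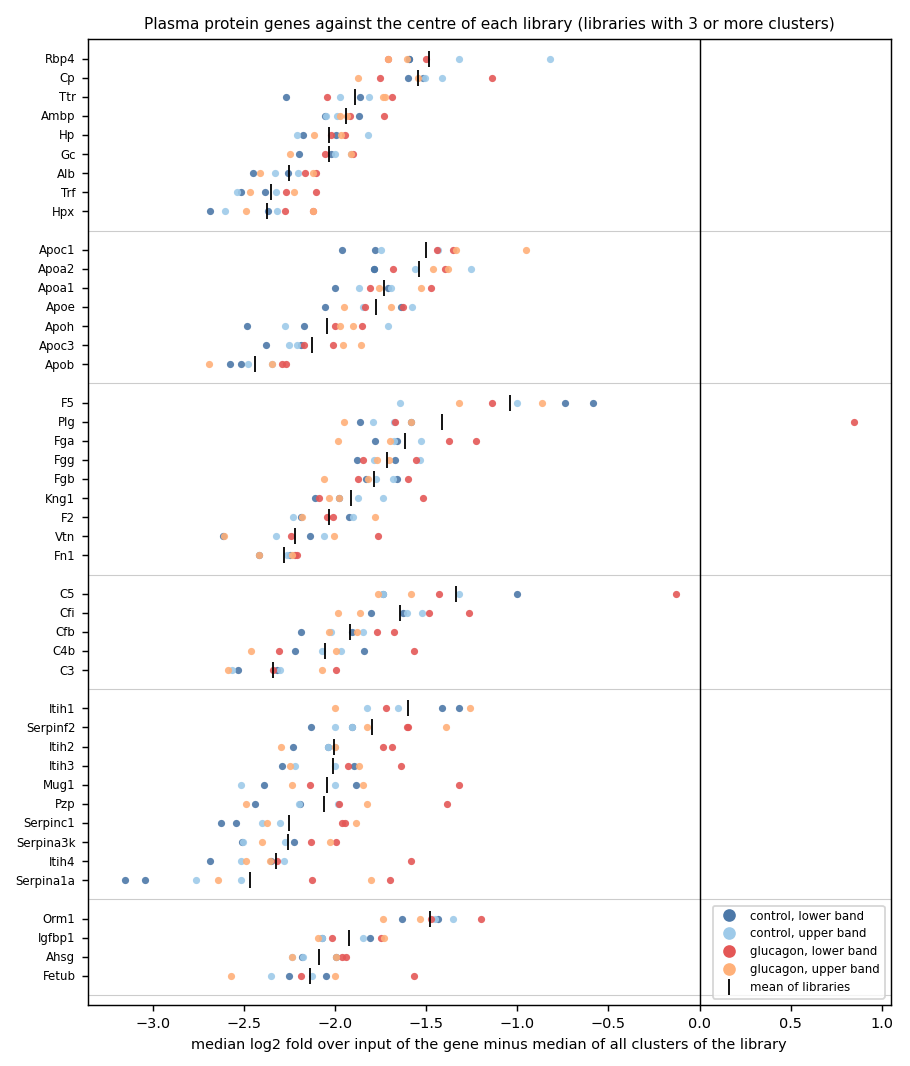
Each row is a plasma protein gene, grouped from top to bottom as carriers, apolipoproteins, clotting and fibronectin, complement, protease inhibitors, and fetuins and others; the horizontal axis is the median log2 fold of its clusters minus the median of all clusters of the library. Points are libraries with at least 3 clusters, the tick is their mean, and 349 of 350 points lie left of 0, the centre of the library.

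Among the carriers of lipids, hormones, vitamins and metals, all 9 genes were lower, with a median of -2.03. Alb (chr5:90460897-90476602, plus strand) encodes albumin, the main protein of plasma. Its 750 clusters were all exonic and covered between 98.8% and 99.3% of its principal mRNA, so the fold can be read along nearly the whole transcript. The Alb median log2 fold was -0.85 and -1.10 in control lower, -1.29 and -1.28 in control upper, -0.54 and -1.12 in glucagon lower, and -0.68 and -1.10 in glucagon upper. All 8 libraries were below input, and the treatments overlapped. Against the library centre Alb was -2.25 ± 0.09 (SE, n = 8; limma, adjusted p = 9.9e-10).

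Hpx, which encodes hemopexin, the carrier of free heme, was among the lowest at -2.37 ± 0.10 (SE; limma, adjusted p = 1.4e-09). Trf, transferrin, the iron carrier, was close to it at -2.35 ± 0.09 (SE; adjusted p = 9.9e-10 by limma). Its medians ran from -1.49 in control upper band replicate 2 to -0.48 in glucagon lower band replicate 1. Cp, which encodes the copper-carrying ferroxidase ceruloplasmin, and Rbp4, the retinol carrier, were the carriers nearest to the centre, at -1.54 ± 0.10 and -1.48 ± 0.11 (SE). Rbp4 stood at 0.09 in control upper band replicate 1 and between -0.52 and -0.09 in the other 7 libraries, so its distance from input was small. Against exonic clusters alone Rbp4 lay at -0.53 and Cp at -0.49, nearer than against exonic and intronic clusters together.

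All 7 apolipoprotein genes were lower, with a median of -1.78. Apob (chr12:7977648-8016835, plus strand), the giant structural protein of very low density lipoprotein, held 887 clusters, all exonic, and was the lowest of them at -2.44 ± 0.09 (SE; limma, adjusted p = 7.4e-10). The Apob medians were -1.11 and -1.23 in control lower, -1.43 and -1.43 in control upper, -0.67 and -1.29 in glucagon lower, and -0.90 and -1.38 in glucagon upper. Apoc1, a small exchangeable apolipoprotein, was the highest at -1.50 ± 0.12 (SE), with medians from -0.70 to 0.49, but it rests on 7 to 10 clusters in a library. Apoa2, of high density lipoprotein, was near it at -1.54, and Apoa1 and Apoe lay at -1.73 and -1.78. Apoc3, which slows the clearance of triglyceride-rich particles, was lower at -2.13.

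Among the clotting genes and fibronectin, 8 of 8 tested were lower, with a median of -1.85. Fn1 (chr1:71585520-71653200, minus strand), the adhesive glycoprotein fibronectin, held 1078 clusters, the most of all 44 genes. It lay at -2.28 ± 0.08 (SE; limma, adjusted p = 7.4e-10). The 3 fibrinogen chains, which are secreted as 1 complex, lay close together at -1.62 for Fga, -1.79 for Fgb and -1.72 for Fgg. Plg, plasminogen, was -1.41 ± 0.26 (SE; limma, adjusted p = 2.9e-04), with a wider error because its 5 clusters in glucagon lower band replicate 1 had a median of 2.47 while the other libraries lay between -0.77 and -0.14.

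The 5 complement genes were all lower, with a median of -1.92. C3 (chr17:57203970-57228136, minus strand), where the complement pathways meet, was the lowest at -2.34 ± 0.10 (SE; limma, adjusted p = 1.4e-09). Its medians were -0.91, -1.18, -1.39 and -1.52 in untreated cells, lower band first, and -0.38, -1.36, -0.63 and -1.28 after glucagon. C5, annotated in GENCODE as Hc, was the highest of the 42 genes at -1.34 ± 0.17 (SE; limma, adjusted p = 1.1e-05). In the smallest library C5 had 4 clusters and a median of 1.49. C4b lay at -2.05, and its near-identical copy C4a means that fragments may be divided between them in a way the lists do not record.

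Of the protease inhibitors, 9 of 9 tested were lower, with a median of -2.06. Serpina1a, an alpha-1-antitrypsin gene, had the lowest value of the 42 genes at -2.47 ± 0.17 (SE; limma, adjusted p = 3.6e-08). It rests on 5 to 7 clusters in a library and belongs to a set of near-identical copies, so its placement is uncertain. Mug1 and Pzp, of the alpha-2-macroglobulin family, share sequence with relatives as well and lay at -2.04 and -2.06. Serpinc1, antithrombin, lay at -2.25, and the inter-alpha-trypsin inhibitor heavy chains Itih2, Itih3 and Itih4 at -2.00, -2.01 and -2.32. Of the other 4 genes, Ahsg and Fetub, the fetuins, lay at -2.09 and -2.14, Igfbp1, an insulin-like growth factor carrier whose gene is induced by fasting, at -1.92, and Orm1, an acute phase protein with a close copy in Orm2, at -1.48.

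Depletion here means a log2 fold of -1 or less. The deposited p tests enrichment only: every cluster with a fold below 0 carried a -log10 p of 0, so depletion has no p of its own. The depleted share of plasma protein clusters was 26.2% and 42.6% in control lower, 57.4% and 57.9% in control upper, 6.21% and 48.9% in glucagon lower, and 13.2% and 45% in glucagon upper. The exact binomial 95% interval was 4.70% to 8.02% in the lowest library and 55.5% to 60.3% in the highest, and it covers counting error only. Over all clusters the depleted share was 1.6% to 5.23%. Among exonic clusters alone it was 4.2% to 17.1% over all genes, beside 6.26% to 63.3% in the plasma protein genes. In glucagon lower band replicate 1 these exonic shares were close, at 4.2% and 6.26%. The low shares of the plasma protein genes were in the libraries with the fewest clusters, and the part of list size in that was not tested. Although plasma protein genes held 0.636% to 3.31% of the clusters of a library, they held 9.73% ± 1.62 (SD, n = 8) of its depleted clusters. By gene, with libraries weighted equally, the mean depleted share was low in Apoa2 at 1.79% ± 5.05 and Cp at 6.44% ± 2.97. It was high in Apob at 67.0% ± 25.7 and Serpina1a at 68.6% ± 30.2 (SD, n = 8), which did not differ beyond their spread.

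The clusters of these genes lay mostly in exons, unlike those of the library as a whole. Of the 11492 clusters, 10961 were exonic and 531 intronic, an intronic share of 0.805% to 8.92% in a library, whereas 43.4% to 79.4% of all clusters were intronic. Within exons alone, the difference of medians shrank to -1.04 ± 0.11 (SD, n = 8) and kept its sign in every library. Within introns alone it was -0.64 ± 0.20 (SD, n = 8), again below 0 in every library. The intronic clusters of plasma protein genes lay above input, with a median of 1.08 ± 0.29 (SD, n = 8), beside 1.71 over all intronic clusters.

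**Figure D2:**
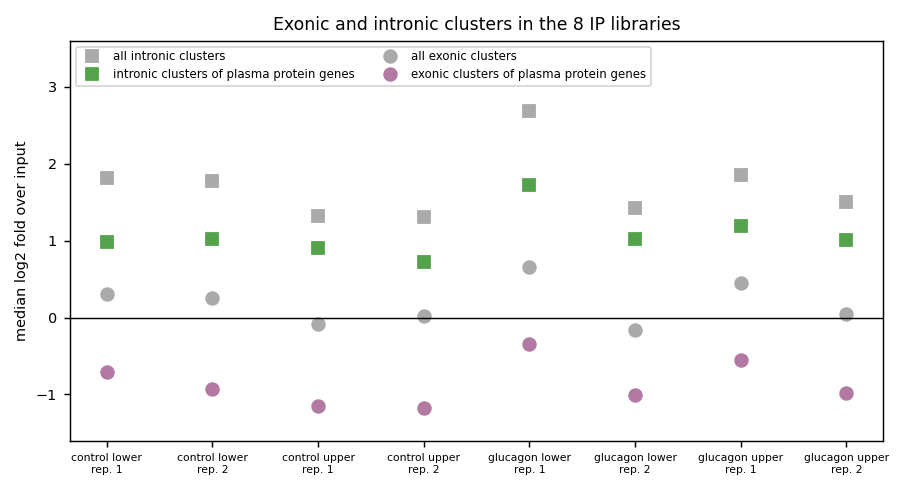
Median log2 fold over input in each of the 8 IP libraries for exonic clusters (circles) and intronic clusters (squares), in plasma protein genes (coloured) and over all genes (grey). In each library exonic lies below intronic and the plasma protein genes lie below all genes in both classes.

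Tested gene by gene in exons against the median of all exonic clusters, 40 of 42 plasma protein genes were lower, beside 46.3% of 1367 genes lower and 17.8% higher. Their median was -0.97, with -0.23 over all genes tested. The genes that missed the threshold were Plg at -0.34 ± 0.25 and C5 at -0.35 ± 0.16 (SE), both with few clusters in glucagon lower band replicate 1. Serpina1a, Apob and Fn1 were the lowest at -1.39, -1.36 and -1.32. By region, the mean of the library medians was -0.87 in coding sequence, -0.79 in 3′ untranslated regions and -0.29 in 5′ untranslated regions, beside 0.01, 0.36 and 0.97 over all genes. In introns it was 0.84 within 500 nt of an exon and 1.30 farther in, beside 1.78 and 1.68. In each of these regions the plasma protein genes were below all genes in 8 of 8 libraries.

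Introns of these genes were covered unevenly. No intronic cluster was found in 18 of the 44 genes, including Alb, Apob and Hpx, while Fn1, Gc, Itih2, Cp, Kng1 and C4b together held 398 of the 531. Those 6 genes could be tested in introns, needing at least 3 intronic clusters in 4 libraries. In 4 of them the intronic fold was lower than the library's intronic centre (limma), beside 15.8% of 5630 genes lower and 13.3% higher: Cp at -1.25 ± 0.17, Fn1 at -1.02 ± 0.12, Gc at -0.72 ± 0.17 and C4b at -0.58 ± 0.15 (SE). Kng1, a kininogen, and Itih2 stood at -0.26 and -0.25 and did not pass (adjusted p = 0.23 and 0.134). Gc and Cp reached 3 intronic clusters in the 4 control libraries alone, so their intronic values describe untreated cells. With any 1 control library left out they could not be tested, and C4b and Fn1 passed among the 4 genes that could.

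Inside a gene, exonic clusters were lower than intronic ones in all 6 of these genes, beside 80.5% of 3537 genes lower and 0.65% higher. The difference was -2.28 ± 0.18 in Itih2, -2.11 ± 0.22 in Kng1, -1.99 ± 0.21 in C4b, -1.77 ± 0.17 in Fn1, -1.76 ± 0.24 in Gc and -0.67 ± 0.24 in Cp (SE; limma), those of Gc and Cp again from control libraries alone. The Cp value turned to 0.12 (adjusted p = 0.526) when a cluster overlapping both an intron of 1 transcript and an exon of another was counted as intronic. The median of the 6 was -1.88, beside -1.01 over all genes.

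The thresholds for enrichment used here were a log2 fold of at least 3 with a -log10 p of at least 3. They were met by 4 of the 11492 clusters of these genes, beside 35942 of the 1331383 clusters in the series. All 4 were intronic. Of the 8478 reproducible peaks in the authors' combined lists, 0 lay in a plasma protein gene. Over the series, 1216 of the 12937 genes with a cluster held such a peak. Of the clusters, 4.62% were intronic in the plasma protein genes and 71.5% in the series. The part of this in the low counts was not tested. In Gc, the vitamin D binding protein (chr5:89417522-89457898, minus strand), 2 of the 4 enriched clusters lay close together. Both were within 500 nt of an exon in control lower band replicate 2. The cluster at chr5:89425585-89425600 had a log2 fold of 4.03 with a -log10 p of 9.70, and the one at chr5:89425673-89425746 had 3.36 with 16.4. Overlapping clusters in control upper band replicates 1 and 2 reached 2.60 and 2.10 at the first position and 2.49 and 2.30 at the second. Neither position had a cluster in control lower band replicate 1 or in any glucagon library.

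In Rbp4 (chr19:38116629-38125281, minus strand), a deep intronic cluster at chr19:38120147-38120221 had 3.01 with a -log10 p of 18.4 in glucagon upper band replicate 2. The same position had 2.77 and 2.85 in control upper band replicates 1 and 2 and no cluster in the other 5 libraries. It therefore appeared in 3 of the 4 upper band libraries and in 0 of the 4 lower band ones. Those 3 were also the largest lists, with 240002, 260814 and 207718 clusters, so band and list size cannot be told apart here. The C4b cluster at chr17:34733232-34733338 reached 3.08 in control upper band replicate 1 and was found in no other library. A further 11 clusters in 8 genes had a fold of at least 3 with a -log10 p under 3, and 9 of them were intronic.

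For treatment, the share of a library's clusters that fell in each gene was compared, as the log2 of clusters per 10000 with 0.5 cluster added, in limma with treatment and band as terms. Of the 44 plasma protein genes 0 passed at an adjusted p of 0.05 in either direction. Over 6103 genes, 1.97% were lower and 1.33% higher with glucagon. An unadjusted p under 0.05 was found in 4 of the 44, as in 970 of the 6103 genes. In counts simulated with an assumed spread, for genes drawn from all those tested, the same fit called 6% of genes shifted by 1 log2 unit. It called 49% of those shifted by 2. These rates may differ for the 44 plasma protein genes. The 0 calls do not show that the shares were unchanged. The glucagon estimate was above 0 in 43 of the 44 plasma protein genes, with a median of 0.76, beside -0.12 over all genes. That median was 0.33 without glucagon lower band replicate 1 and 1.17 without glucagon lower band replicate 2. Alb shows the pattern: with untreated cells it took 6.41, 5.38, 4.54 and 4.18 clusters per 10000, lower band first, and after glucagon 24.7, 5.05, 9.12 and 4.91. The pair of smallest lists were the high ones, the other glucagon libraries lay inside the control range, and the part of list size in the difference was not tested.

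**Figure D3:**
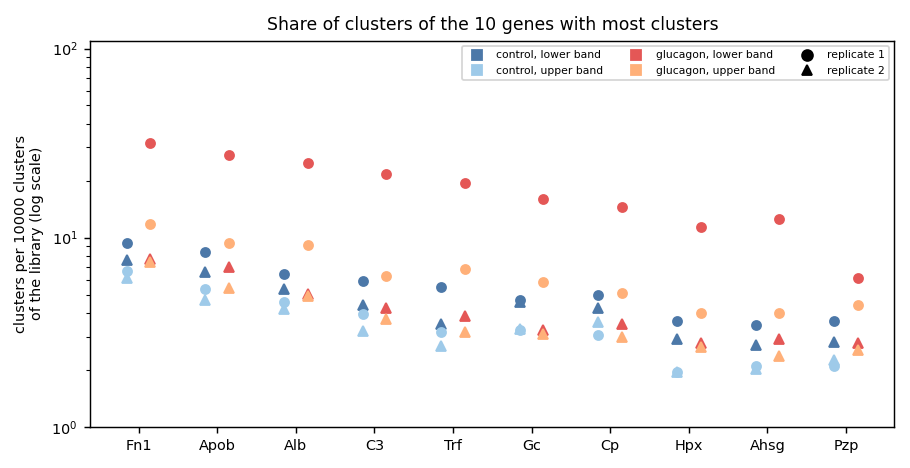
Clusters per 10000 clusters of the library (log scale) for the 10 plasma protein genes with most clusters, with control libraries left and glucagon libraries right of each gene and replicates as circles and triangles. Glucagon lower band replicate 1, the smallest list, is the top point of every gene.

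The estimates with the smallest unadjusted p were those of F5, Orm1, Igfbp1 and Mug1. F5, clotting factor V, held 5, 9, 11 and 9 clusters in untreated cells and 1, 37, 15 and 22 after glucagon, in the order used above. Its estimate was 1.42 ± 0.42 (SE; limma, adjusted p = 0.126). Igfbp1 held 17, 17, 20 and 19 clusters in control and 15, 22, 23 and 25 with glucagon, an estimate of 1.16 ± 0.49 (SE; limma, adjusted p = 0.292). Orm1 stood at 1.13 ± 0.42 (adjusted p = 0.237 by limma). F5 passed without glucagon lower band replicate 1, and Orm1 passed without glucagon lower band replicate 2. Within hepatocyte metabolism, 10 of 18 genes tested of the urea cycle and amino acid breakdown were higher in the same fit, beside 1.33% of 6103 genes. Whether any of them reached the minimum mean of 5 clusters only through glucagon libraries was not examined. Their count was not repeated with a library left out.

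Introns showed a different order among the genes, noticed in the counts and then tested. Gc held 5, 16, 10 and 20 intronic clusters in untreated cells and 0, 0, 0 and 1 with glucagon. Cp held 11, 8, 5 and 12 against 2, 0, 1 and 0, and C4b held 4, 5, 8 and 7 against 0, 0, 0 and 3. In these 3 of the 26 genes with an intronic cluster, every control library was above every glucagon library, beside 4.72% of the 10517 genes with an intronic cluster, and in 0 was it the other way round, beside 0.19%. Glucagon libraries held fewer intronic clusters in all, 350148 against 602077, so the counts were also taken per 10000 intronic clusters of the library.

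On that scale Gc stood at 0.58, 1.29, 0.54 and 0.97 in control and at 0, 0, 0 and 0.07 with glucagon. Gc reached the minimum for the limma fit, a mean of 5 intronic clusters, only through its control libraries, so its call there, as lower, does not support a treatment difference. Of the 4279 genes with a mean of at least 5 intronic clusters, 3.55% were lower and 2.5% higher. Itih2 rose by 1.26 ± 0.31 (SE; limma, adjusted p = 0.0459). It stood at 0.35, 0.48, 0.32 and 0.39 in control and at 0.88, 0.82, 1.10 and 0.72 with glucagon. Its counts of intronic clusters, 3, 6, 6 and 8 against 1, 10, 7 and 11, did overlap, and the 0.88 rests on 1 cluster in the smallest library. Per 10000 intronic clusters Cp overlapped between treatments, since its 2 clusters in the smallest library came to 1.75, above its control range of 0.27 to 1.28. Fn1, the third gene above that minimum, did not pass at 0.13 ± 0.31 (SE).

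The Itih2 call was lost with a pseudocount of 2, with the median gene as centre, and with any library left out other than glucagon lower band replicate 2. With a minimum mean of 1 intronic cluster, 12 of the genes were tested, and Itih2, Cp and C4b did not pass (limma, adjusted p = 0.136, 0.488 and 0.329, beside 1.26% of 7564 genes higher and 0.648% lower). F5 held 0 intronic clusters in all 4 control libraries and 0, 8, 1 and 8 with glucagon. It reached that minimum only through glucagon libraries, so its call there, as higher, is not support for a difference either.

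The fold itself was described only by whether library-centred medians were fully separated between treatments or bands. Overlap by that measure does not show that a fold was unchanged. Of the 42 genes, Apoc3 and Serpinf2 had library-centred medians higher in all 4 glucagon libraries than in all 4 control ones, beside 1.22% of 2137 genes, and 0 were lower throughout, beside 1.78%. Apoc3 stood at -2.38 to -2.19 in control and -2.17 to -1.86 with glucagon. Serpinf2, alpha-2-antiplasmin, stood at -2.13 to -1.91 and at -1.82 to -1.39. Between bands 0 of the 42 genes were separated in either direction, beside 1.59% and 2.57% of genes.

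For the share of clusters, upper against lower band, 0 of 44 genes passed and 0 had an unadjusted p under 0.05, where 220 of the 6103 genes did and 0 of them passed (limma). The median estimate was -0.64, with 42 of 44 genes below 0, beside 0.09 over all genes with 2671 of 6103 below 0. Without glucagon lower band replicate 1 the medians were -0.19 and -0.04. A treatment by band term passed in 0 of the 44 genes and in 0 of all 6103, with 0 and 71 at an unadjusted p under 0.05 (limma).

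Along the mRNA, the start stood out from the rest. Each cluster on a principal transcript was set against the mean of its gene and library and sorted into 10 equal bins along the mRNA. In plasma protein genes the first bin was 0.30 ± 0.15 (SD, n = 8) above the gene's own mean and the second 0.13 ± 0.05, each above 0 in 8 of 8 libraries. In other genes these values were 0.21 ± 0.12 and 0.01 ± 0.04. The first bin stood between 0.37 and 0.47 in the 4 upper band libraries and between 0.07 and 0.22 in the 4 lower band ones, without overlap. Other genes showed the same separation, at 0.28 to 0.39 and 0.05 to 0.14.

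**Figure D4:**
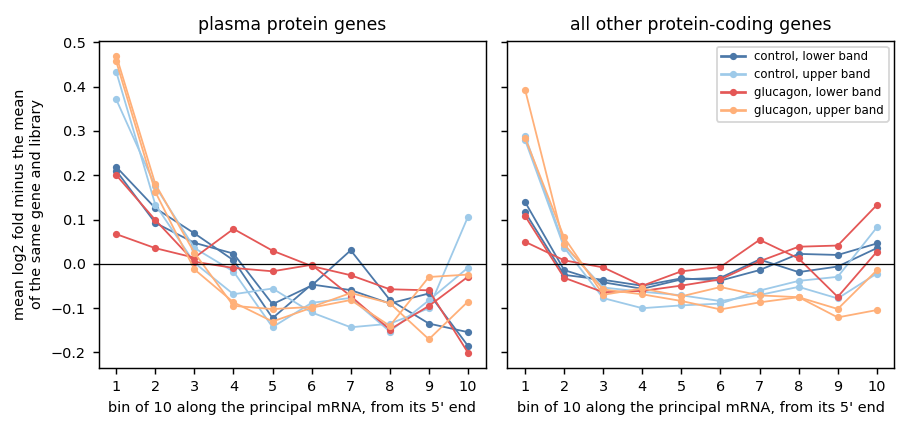
Mean log2 fold of clusters minus the mean of the same gene and library, by 10 equal bins of the principal mRNA from its 5′ end, with 1 line for each IP library, for the plasma protein genes (left) and all other protein-coding genes (right). The first bin is above 0 in all 8 libraries in both panels, and the upper band libraries are highest there.

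By gene, the first bin was higher than the rest in 29 of the 34 plasma protein genes with clusters in both parts in at least 4 libraries, beside 71.4% of 2021 other genes. Of the 27 with a value in all 8 libraries it was higher in each library in 12, beside 23.2% of 406 other genes. The difference was largest in Gc at 1.01 ± 0.38 and Rbp4 at 0.97 ± 0.51, followed by Alb at 0.80 ± 0.29, Hpx at 0.72 ± 0.42, Fn1 at 0.71 ± 0.12 and Trf at 0.69 ± 0.47 (SD, n = 8). Alb ranged from 0.23 in glucagon lower band replicate 1 to 1.16 in control upper band replicate 1. Apob, whose mRNA is by far the longest, showed 0.09 ± 0.14, and Apoc3 had the lowest mean at -0.48 ± 0.86 with 3 of 8 libraries above 0. These positions were examined after the values were seen and carry no test. The signal peptide window of Alb printed above lies in the first bin, and that of Rbp4 in the second.

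The pattern of high and low bases along these mRNAs recurred between libraries. Over 37788 bases of 40 of the genes that were inside clusters in every library, the correlation of the fold between pairs of libraries ran from 0.38 to 0.74, with a median of 0.57 over 28 pairs. Bases of 1 cluster share its value and the pairs share libraries, so this is a description only.

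How much of an mRNA was covered by clusters went with its exonic fold across genes. Over 1347 genes Spearman's rho was -0.66 and Pearson's r -0.56, and over the 42 plasma protein genes they were -0.11 and -0.11. The points share libraries and list sizes. Among mRNAs covered over 80%, the 12 plasma protein genes had a median exonic difference of -1.03 and the 11 other genes -0.95. The latter included Lcn2 at -1.13 and Cyp2b10 at -1.09, with Fgl1 above 0 at 0.37. Fgl1 and Mbl2, both among these 11, are also on the list of further secreted protein genes read below. Secreted protein genes were not taken out of the other genes at any coverage. Selenop and Serping1, at 60% to 80%, are on that list too. Like coverage therefore does not set secreted protein genes against the rest. At 60% to 80% the medians were -0.86 in 15 genes and -0.72 in 58, at 40% to 60% -0.96 in 7 and -0.63 in 148, and at 20% to 40% -0.72 in 8 and -0.41 in 421. The plasma protein genes and other genes thus overlapped at like coverage. The part of abundance in the difference was not tested, since the input libraries were not analysed here.

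**Figure D5:**
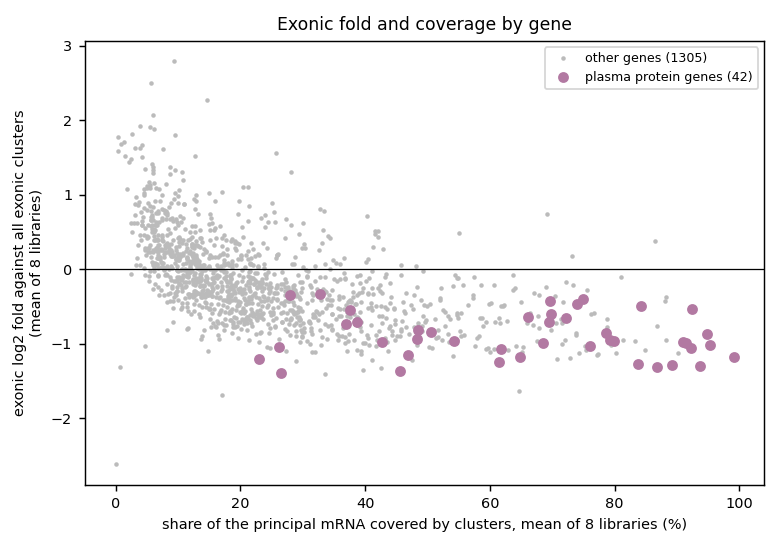
Exonic log2 fold of each gene against the median of all exonic clusters (vertical, mean of 8 libraries) by the share of its principal mRNA covered by clusters (horizontal, percent). The 42 plasma protein genes lie below 0, and the 11 other genes covered over 80% have a median of -0.95.

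A further 69 genes for secreted proteins of hepatocytes were read in the same way. Of these, 29 of 29 tested were lower than the library centre over all clusters, with a median of -1.70. Over all genes 51.6% of 2137 were lower and 23.8% higher. In exons 21 of 28 were lower and 1 was higher, beside 46.3% and 17.8% of 1367 genes. Selenop, the selenium transport protein, was at -2.70 ± 0.12 (SE; limma, adjusted p = 1.4e-09). Igf1, with 306 of its 412 clusters in introns, lay at -0.40 ± 0.11 (SE; limma, adjusted p = 0.00468). Pros1, the anticoagulant protein S, lay at -0.71 and Kng2 at -0.99, also with many intronic clusters. The gene that was higher in exons was Saa2, an acute phase serum amyloid, at 0.73 ± 0.13 (SE; limma, adjusted p = 3.5e-04), which has a close copy in Saa1. Over all clusters, exonic and intronic together, Saa2 lay at -0.34. Of cytochrome P450 genes 8 of 9 were lower over all clusters with a median of -1.71. Of urea cycle and amino acid genes 4 of 11 were lower and 1 higher with a median of -0.04. Both counts stand beside the same 51.6% lower and 23.8% higher over all genes.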

How the data were processed

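The 8 cluster lists and the combined lists of reproducible peaks were used as deposited. In them the authors give each cluster a -log10 p and a log2 fold over input. STAR and cutadapt and the mm10 build are named per the submitters' processing notes, and the cluster caller is not given in the sources used here. Read depth is unknown. Clusters were given to genes by midpoint and strand, and to regions with exons before introns (Python 3.11.15, pandas 2.3.3). Tests were run in limma 3.58.1 (R 4.3.3) over all genes with Benjamini-Hochberg adjustment at 0.05 and tested on simulated data. Principal transcripts came from GENCODE M21. Members and lists were chosen with earlier results of these data known. Genes named in full were the 10 with most clusters, those with an enriched cluster, the 5 lowest and 5 highest against the centre, and the 5 other secreted genes with most clusters; further names were chosen after their values were seen. Of the 44 symbols, 1 (C5) was matched through a RefSeq synonym. Alternatives covered filters, pseudocounts, centring, region rules, the replicate block and each library left out.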

Additional observations from a re-analysis of the deposited data

How the results depend on the processing

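The calls of plasma protein genes over all clusters (42 lower) and in exons (40 lower) moved by less than 1.5 times under every alternative run. Over all genes, requiring 1 cluster gave 1833 lower and 968 higher over all clusters (1103 and 508 as reported) and 991 higher in exons (244), where 5 clusters gave 85, introns before exons 152 and centring over genes 141. In introns, 1 of 3 plasma protein genes was lower with bands averaged, 20 of 22 with introns before exons, and 2 to 4 with a library left out. C4b in introns was -0.46 (adjusted p = 0.0561) with exons of retained-intron transcripts counted as exons, chosen after seeing the data. Exon minus intron was lower in 14 of 14 genes with 1 cluster and in 3 of 3 with bands averaged, and higher in 2 (Apoe and C3) with introns before exons, where Cp turned to 0.12. Over all genes it was lower in 1895 with 5 clusters and 1747 with bands averaged (2849), and higher in 35 with 1 cluster, 14 with 5 and 15 with bands averaged (23). For glucagon, F5 was the 1 plasma protein gene higher with a pseudocount of 2 and with the median gene as centre, and 0 to 1 were higher with a library left out. Over all genes the range without a library was 34 to 215 lower and 43 to 125 higher, and a pseudocount of 2 gave 132 higher. The replicate block gave 195 lower genes for glucagon (120) and changed no call of a plasma protein gene. Across treatments the libraries share only a replicate number, while lower and upper bands are of the same cells per the labels. Same-numbered libraries deviated together with r of 0.19 to 0.47. Between bands r was 0.25 in control and 0.47 with glucagon. For intronic shares, a test added after seeing the data, plasma protein genes lower (1 as reported, Gc, which reached the minimum only through control libraries) numbered 0 with a pseudocount of 2, a minimum of 1 or the median gene as centre, and 0 to 1 without a library. Those higher (1, Itih2) were 0 with a pseudocount of 2 or the median gene as centre, and 0 to 1 without a library. Over all genes the lower calls were 61, 49 and 28 under those 3 settings (152) and 46 to 217 without a library, and the higher calls 60 with the median gene as centre and 57 to 116 without a library (107). Enriched clusters numbered 27 at a log2 fold of 2, 15 without a p threshold and 2 to 4 without a library, with 2 when control lower band replicate 2 was left out. Clusters below 0 made up 87.6% where 40.2% were depleted, and introns before exons gave 24.2% intronic clusters (4.62%). Causes were not tested. Genes with few clusters and folds without read counts limit precision.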
